A study of Mus musculus with 24 samples.

Results

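The 6 libraries described here were made from male mouse tracheal epithelium that had been exposed to cigarette smoke, and they are taken as inserts 1, 2 and 3 against inserts 4, 5 and 6. These 6 libraries are part of 24 in the study, which also holds 6 male air, 6 female air and 6 female smoke inserts. The division into 3 and 3 was chosen from the measured values of the same libraries, so differences between the sets of smoke inserts are given as a description and carry no test. A gene was kept where its normalised counts averaged 10 or more across the 6 male smoke inserts, which left 13172 of 25239 genes. The last genes left out were Wdr38, H4c8 and Gnat2 at means of 9.95, 9.97 and 9.99. Mroh2a and Sfmbt2 entered at 10.03 and 10.04.

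Every library came from wild-type FVB/NJ mice of 7 to 8 weeks. Tracheal epithelial cells were expanded in submerged culture and then left to differentiate for 10 to 14 days between air and liquid, on porous inserts that leave the upper face of the epithelium open to air. Smoke inserts then received cigarette smoke for 10 days, 2 cigarettes burning for about 8 minutes making up 1 exposure, and air inserts received humidified air over the same days. Every group thus shares strain, culture and exposure time, and the male groups differ in the exposure alone as far as the labels go. The labels number the inserts but name no animal, cell preparation or day behind a number. Inserts of a group may therefore be technical repeats of 1 cell preparation, and every p-value below measures the spread between inserts only.

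Airway epithelium meets smoke with several transcriptional programmes. The aryl hydrocarbon receptor binds polycyclic aromatic hydrocarbons and switches on cytochrome P450 genes such as Cyp1a1. NRF2 is released from KEAP1 by electrophiles and raises genes for glutathione, thioredoxin and haem metabolism, among them Nqo1, Hmox1 and the glutathione transferase Gsta1. NF-kB drives chemokines such as Cxcl1, which draws neutrophils, and Ccl20, which draws dendritic cells and lymphocytes that carry CCR6. The epithelium itself is built of basal cells, secretory club and goblet cells and multiciliated cells, and prolonged smoke is known for loss of cilia and for squamous change.

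Assigned reads ranged from 16038813 to 24485024 over the 23 libraries in which whole reads could be recovered from the normalised values. Male smoke insert 5 is the library without such a recovery. Over the 6 male smoke inserts, 16040 to 17300 genes had a value above 0. The 100 most abundant genes held 16.0 to 17.0% of the normalised total in inserts 1 to 3 and 18.6 to 18.8% in inserts 4 to 6. The rank correlation of a library's deviation with transcript length lay between -0.146 and 0.101 in the male smoke inserts, while female air insert 1 stood at -0.668 and female smoke insert 4 at -0.449. Values below are the authors' normalised counts, which are not scaled for gene length, so levels are compared between inserts and not between genes. Differences between sets are differences of mean log2(normalised count + 1), inserts 4 to 6 minus inserts 1 to 3. Because these are bulk samples, fewer cells of a type and less RNA per cell cannot be told apart.

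The 6 smoke inserts did not form 2 equally compact sets. Inserts 4, 5 and 6 lay close together, with 297 to 535 of the 13172 genes at least 2-fold apart between any 2 of them. Among inserts 1, 2 and 3 the same count was 874 to 1366, so these inserts differed from one another more than inserts 4 to 6 did. Insert 2 was as near to the other set as to its own, with 858, 1034 and 871 genes 2-fold apart from inserts 4, 5 and 6 against 1262 and 874 from inserts 1 and 3. Insert 1 and insert 5 were the most distant pair of the 15, at 1782 genes. A description as 2 states thus did not hold for insert 2 over all genes. In the 6 male air inserts, by contrast, pairs within inserts 1 to 3 or within 4 to 6 were 129 to 217 genes apart and pairs across were 305 to 596 genes apart.

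**Figure D1:**
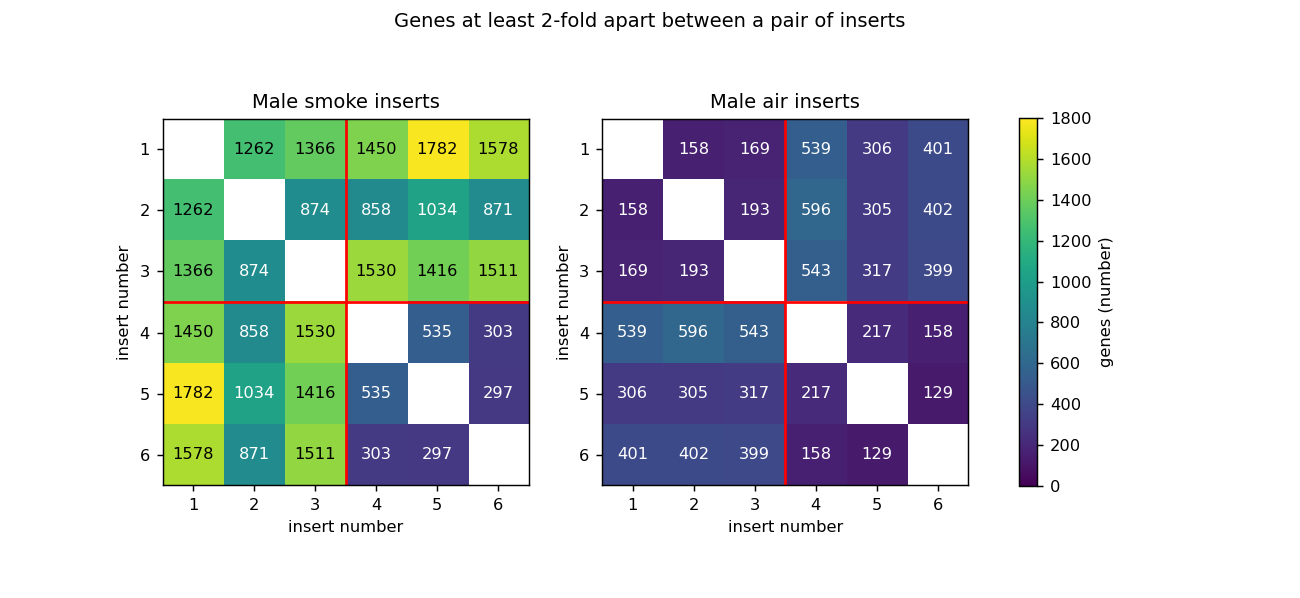
Number of genes at least 2-fold apart between each pair of male inserts, smoke on the left and air on the right, with insert numbers on both axes and red lines between inserts 3 and 4. Under smoke, inserts 4 to 6 form a dark block of 297 to 535 genes while insert 2 sits at 858 to 1034 genes from them, and under air both blocks are dark at 129 to 217 genes.

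A first principal component of the smoke inserts held 50.2% of their variance and placed insert 1 at 58.0, insert 3 at 23.5 and insert 2 at 5.90, with inserts 4, 6 and 5 at -20.6, -28.2 and -38.6. The second held 25.9% and set insert 3 at -43.3 apart from insert 1 at 28.9. The widest gap on the second component thus lay within the first set.

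Between the smoke sets, 4446 genes, 33.8% of those kept, had no overlap of the 3 values on each side, 2337 higher in inserts 1 to 3 and 2109 higher in inserts 4 to 6. Nearly the same share, 33.5%, had no overlap between the numbered sets of air inserts. Genes that also differed by at least 2-fold numbered 666 under smoke, or 5.06%, of which 175 (1.33%) were higher in inserts 1 to 3 and 491 (3.73%) in inserts 4 to 6. The same rule gave 202 genes, 1.53%, in male air. These shares are the background for every count of members below, and nothing is read from them for the smoke sets because the sets were chosen on these values. Leaving out any insert eases the no-overlap condition to 2 values against 3, and the count of 666 became 695 to 1015. It was highest, at 1015, without insert 2. List counts given below without an insert are eased in the same way.

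Insert 2 had the value nearest to inserts 4 to 6 for 110 of the 175 genes higher in the first set (62.9%), while inserts 1 and 3 were the outermost for 83 and 86 of them. On the other side, insert 4 was nearest to the first set for 276 of the 491 genes (56.2%) and insert 5 was the outermost for 235. Insert 2 was thus the least extreme of its set for most of the 175 genes and insert 4 for most of the 491. On the other list of each, insert 2 was nearest for 180 of the 491 (36.7%) and insert 4 for 66 of the 175 (37.7%).

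Set against the 6 male air inserts, the 175 genes were mostly above air in inserts 1 to 3. In 66 of them both smoke sets lay above all 6 air inserts, and in 74 more the first set lay above air while inserts 4 to 6 overlapped it. The 491 genes fell mostly into a pair of kinds. Inserts 4 to 6 stood above air with inserts 1 to 3 overlapping the air range for 167. Inserts 1 to 3 stood below air with inserts 4 to 6 overlapping the air range for 130. Both sets were below air for 84, and for 44 the sets lay on opposite sides of air, with inserts 1 to 3 below and inserts 4 to 6 above. Over all 13172 genes, inserts 1 to 3 were above air for 23.8% and below it for 24%, and inserts 4 to 6 for 19.4% and 19.2%. Of the same 13172 genes, both sets were above air for 11.4%. The first set was above with inserts 4 to 6 overlapping air for 12.3%. The reverse, inserts 4 to 6 above and inserts 1 to 3 overlapping, held for 7.3%. Inserts 1 to 3 were below with inserts 4 to 6 overlapping for 9.4%. Both sets were below for 13.9%, near the 17.1% among the 491. Inserts 1 to 3 were below and inserts 4 to 6 above for 0.7%.

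**Figure D2:**
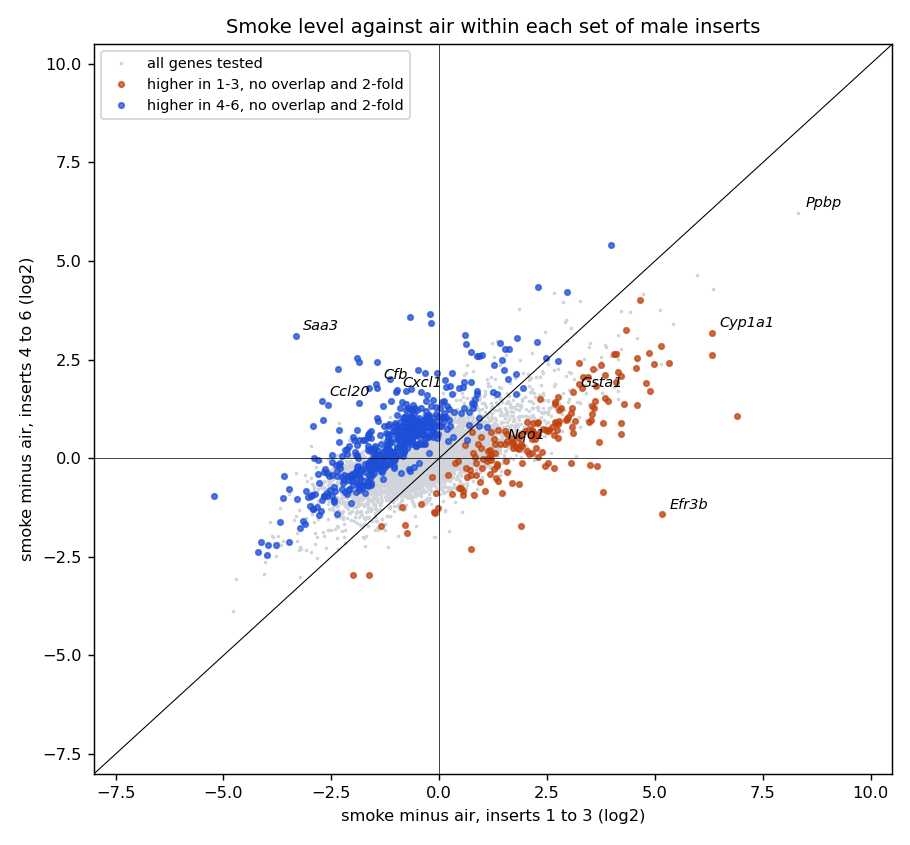
Smoke minus air in inserts 4 to 6 (y axis, log2) against smoke minus air in inserts 1 to 3 (x axis, log2), each set compared with the air inserts of the same numbers, 1 point per gene, with orange and blue for the 175 and 491 genes that differ between the sets. Cyp1a1 lies high on both axes at 6.33 and 3.18, Ccl20 is low on the x axis at -2.72 and above 0 on the y axis at 1.44, and Efr3b stands out at the lower right.

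All 6 marker genes, Cyp1a1, Nqo1, Hmox1, Gsta1, Cxcl1 and Ccl20, were kept by the filter, and all 6 differed between the smoke sets with no overlap and by at least 2-fold, against 5.06% of genes; the markers were named for this difference. Cyp1a1, Nqo1, Hmox1 and Gsta1 were higher in inserts 1 to 3, and Cxcl1 and Ccl20 in inserts 4 to 6. Between male air sets, a comparison that played no part in choosing them, 5 of the 6 passed limma at a Benjamini-Hochberg adjusted p under 0.05, against 16.9% of genes. Nqo1, Hmox1, Gsta1 and Cxcl1 were ordered there as under smoke, and Ccl20 the other way. Cxcl1 and Ccl20 did not pass in DESeq2 (adjusted p = 0.174 and 0.164).

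**Figure D3:**
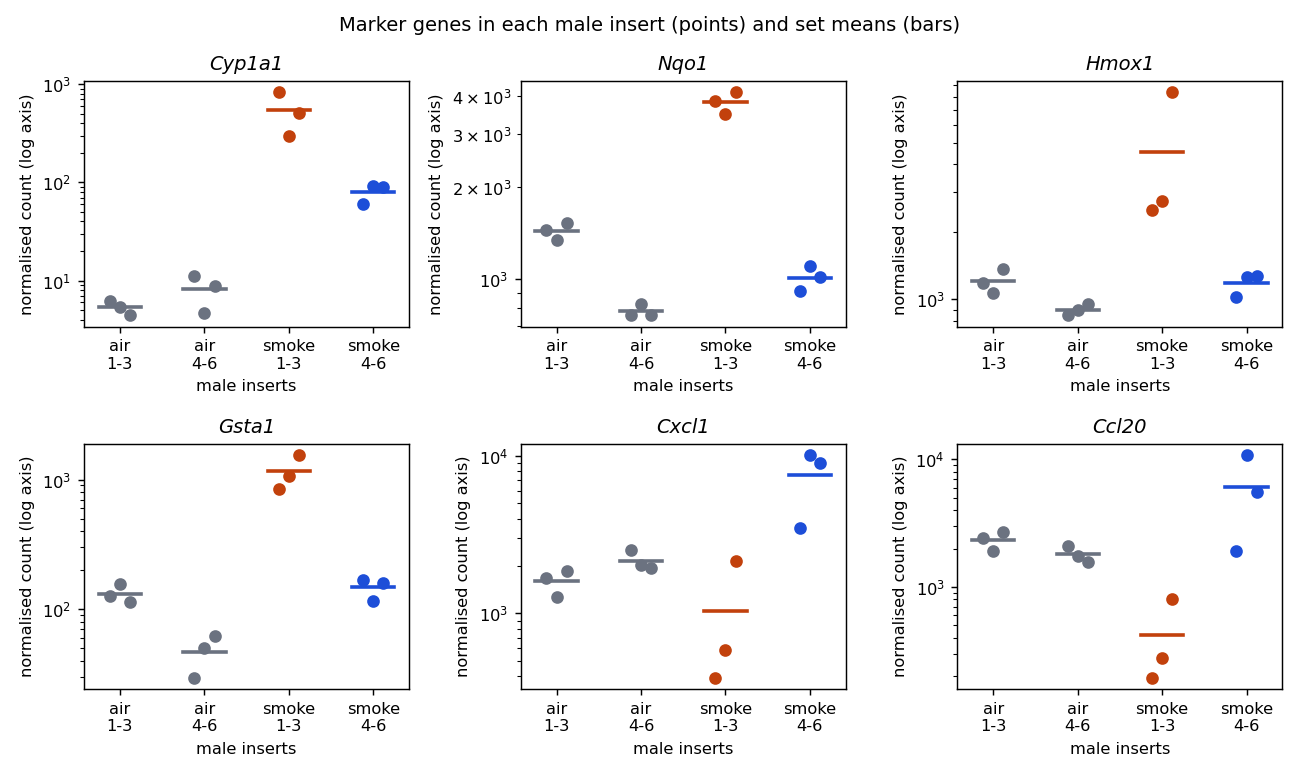
Normalised counts (log axis) of the 6 marker genes in the 12 male inserts, 1 point per insert, with a bar at the mean of each set of 3. Cyp1a1, Nqo1, Hmox1 and Gsta1 are highest in smoke inserts 1 to 3, Cxcl1 and Ccl20 are highest in smoke inserts 4 to 6 with insert 4 the lowest of its set, and the air sets of Nqo1 and Gsta1 also stand apart.

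Cyp1a1 oxidises polycyclic aromatic hydrocarbons and is the classic target of the aryl hydrocarbon receptor, annotated in the files at chr9:57687927-57703824 (mm10). Its normalised count was 829.5, 300.3 and 515.2 in smoke inserts 1, 2 and 3 and 59.9, 91.95 and 89.9 in inserts 4, 5 and 6, against 4.42 to 11.3 over the 6 air inserts. Every smoke insert was above every air insert, and the lowest value of the first set was more than the highest of the other. Set means were 548 ± 266 and 80.6 ± 17.9 (SD, n = 3 each), a difference of -2.66 on the log2 scale. Over both sets Cyp1a1 rose with smoke by 4.76 ± 0.59 (log2, SE; limma, adjusted p = 8.69e-05, higher in 6 of 6 smoke inserts), a comparison in which 45.6% of genes passed, 22.1% higher with smoke and 23.5% lower. The air sets did not differ by the test, at 0.49 ± 0.43 (limma, adjusted p = 0.489).

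Of 12 listed genes of the aryl hydrocarbon receptor pathway, 11 were kept and 4 differed between the smoke sets (Cyp1a1, Ahrr, Tiparp and Nqo1), all 4 higher in inserts 1 to 3, against 1.33% of genes. The list's median difference was -0.55, beside 0.00 over all genes. Ahrr, the repressor that the receptor induces against itself, stood at 68.0, 25.4 and 47.1 in inserts 1 to 3 and at 15.5, 12.9 and 18.6 in inserts 4 to 6. Tiparp, a polymerase that also restrains the receptor, stood at 3237, 3391 and 4577 against 1697, 1670 and 1814. Both feedback genes were therefore ordered as Cyp1a1 was, with no overlap between the sets. Cyp1b1, another P450 of the pathway, was at 16790 to 23750 in the first set and 10210 to 15260 in the second, without overlap but at a difference of -0.68, short of 2-fold. Messenger RNA for the receptor itself, Ahr, was 3055 to 5152 in inserts 1 to 3 and 5030 to 6094 in inserts 4 to 6. It overlapped, and its difference of 0.61 was of the opposite sign. Smoke against air, Ahrr, Tiparp and Cyp1b1 rose by 3.37, 1.80 and 2.01 (limma, adjusted p = 0.000195, 0.00025 and 9e-06).

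Nqo1, a quinone reductase under NRF2 (chr8:107388224-107403205), had values close together within each set and far apart between them. It stood at 3839, 3491 and 4105 in smoke inserts 1 to 3 and at 908.8, 1099 and 1010 in inserts 4 to 6. Under air it was 1441, 1340 and 1520 in inserts 1 to 3 and 760.4, 823.7 and 756.9 in inserts 4 to 6, so the numbered sets were ordered the same way without smoke. The air sets differed by -0.88 ± 0.06 (log2, SE; limma, adjusted p = 2.84e-07) and the smoke sets by -1.92. Smoke against air came to 0.89 with an adjusted p of 0.098 in limma. With the insert set as a term in limma the adjusted p was 0.00114. The sets were chosen on these smoke values, so that lower p was built in by the choice and adds no support. On whole reads without smoke insert 5, edgeR gave 1.27 (adjusted p = 0.0233) and DESeq2 gave 1.27 (adjusted p = 0.0128). Limma without smoke insert 5 gave 1.05 (adjusted p = 0.061).

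Hmox1, which breaks down haem (chr8:75093617-75100593), was highest in insert 3 and differed between the smoke sets by -1.71, or -1.15 without insert 3. Its counts were 2490, 2759 and 8397 in inserts 1, 2 and 3 and 1019, 1263 and 1268 in inserts 4 to 6. The air sets stood at 1062 to 1364 and 847.0 to 949.1, again with inserts 1 to 3 higher, by -0.42 ± 0.08 (limma, adjusted p = 0.00118). Smoke against air was 1.04 ± 0.42 (limma, adjusted p = 0.0558). With the insert set as a term in limma the adjusted p was 0.0141, a fall that the choice of the sets likewise built in. On whole reads without smoke insert 5, edgeR gave 1.6 (adjusted p = 0.0134) and DESeq2 gave 1.6 (adjusted p = 0.00413). Limma without smoke insert 5 gave 1.19 (adjusted p = 0.0387).

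Gsta1, a glutathione transferase of the alpha class (chr9:78230668-78242683), was 852.4, 1067 and 1550 in smoke inserts 1 to 3 and 168.7, 115.7 and 158.7 in inserts 4 to 6, a difference of -2.94. Under air the values were 126.4, 155.6 and 112.6 against 29.3, 49.7 and 61.4, so the first set was the higher in air as well, by -1.52 ± 0.23 (limma, adjusted p = 0.000275). Gsta1 rose with smoke by 2.39 ± 0.68 over both sets (limma, adjusted p = 0.0127). Gsta2, of the same class, was ordered alike, at 424.0, 825.5 and 624.2 against 133.2, 94.9 and 97.2 under smoke. In air Gsta2 was 271.7 to 332.6 in inserts 1 to 3 and 117.0 to 147.4 in inserts 4 to 6, a difference of -1.24 (limma, adjusted p = 7.96e-06). Gstp2 was the remaining transferase with such a difference, at -1.40. Alpha-class and pi-class transferases have close relatives in the mouse genome, and the sources used here do not say how reads shared by such copies were counted.

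The wider NRF2 list followed less evenly. All 32 of its genes were kept, and 3 differed by 2-fold with no overlap, namely Nqo1, Hmox1 and Srxn1. All 3 were higher in inserts 1 to 3, against 1.33% of all genes. Without regard to size, 15 were higher in inserts 1 to 3 with no overlap and 2 were higher in inserts 4 to 6, against 17.7% and 16.0% of all genes. Srxn1, which repairs oxidised peroxiredoxins, was 3191, 3410 and 8704 against 1588, 2162 and 1764. Gclc, the catalytic subunit of the first step of glutathione synthesis, was 9134, 15680 and 18710 against 7863, 9671 and 7951, which overlapped. Insert 1 was the lowest of its set for Gclc, Gclm and the cystine carrier Slc7a11, the last at 1003 in insert 1 and 3179 and 5150 in inserts 2 and 3. Without insert 1 the count of list genes higher in the first set became 8.

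Among 22 kept glutathione transferases no member but Gsta1, Gsta2 and Gstp2 differed by 2-fold without overlap between the smoke sets. Those 3 were higher in inserts 1 to 3, against 1.33% of all genes. The list's median was 0.11, or -0.03 without insert 3. In limma 2 rose and 11 fell with smoke over the list, against 22.1% and 23.5% of all genes. Gstm1, an abundant mu-class enzyme, fell by 1.43 on the log2 scale with smoke (limma, adjusted p = 1.96e-05), at 6260, 10380 and 6953 against 7176, 10610 and 8313 in the smoke sets. Insert 2 and insert 5 were the highest of their sets, and the sets overlapped.

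Blvrb, a biliverdin reductase, was 1350, 1509 and 2212 in smoke inserts 1 to 3 and 595.9, 505.2 and 567.6 in inserts 4 to 6, a difference of -1.57. Its air sets differed in the same direction by -0.78 (limma, adjusted p = 1.13e-06). Heat shock genes are raised when proteins unfold. Of the 15 on the list, Hspb1, Hspa1a and Cryab were higher in inserts 1 to 3 by 2-fold without overlap. These 3 stand against 1.33% of all genes. Without regard to size, 8 of 15 were higher there without overlap, against 17.7% of all genes. Hspa1a was 1068, 486.4 and 5581 against 382.8, 388.6 and 386.2, with insert 3 far above the other 5. The list's mean log2 level was 11.86, 11.36 and 12.68 in inserts 1 to 3 and 11.19 to 11.27 in inserts 4 to 6, beside 11.16 to 11.21 in air. Hspb1, a small heat shock protein, stood above air at 10030, 6821 and 18140 in the first set and below it at 3208, 2374 and 3198 in the other, with air at 3310 to 4731. The list's count became 6 without insert 2 and 2 without insert 1 or without insert 3.

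The tallest differences in favour of inserts 1 to 3 lay outside these pathways. Efr3b, a membrane anchor of a lipid kinase, was 227.0, 49.9 and 1157 in smoke inserts 1 to 3 and 0, 2.97 and 1.62 in inserts 4 to 6, with 2.92 to 6.75 in air. The difference of -6.77 depends on the pseudocount at such low values, and became -5.26 with a pseudocount of 5. Uchl1, a ubiquitin hydrolase, was 94.5, 49.1 and 72.95 against 13.3, 0.989 and 4.05. Procr, the endothelial protein C receptor, was 1715, 680.5 and 2419 against 162.0, 154.2 and 187.0, with every smoke insert above the air range of 21.4 to 71.9. Insert 2 was the lowest of its set for Efr3b, Uchl1 and Procr. Sema6a, a guidance ligand, the immediate early gene Arc and the AP-1 subunit Fosl1 differed by -3.56, -3.33 and -3.22, again with insert 2 lowest of the first set. Ndufa4l2, a hypoxia-induced mitochondrial protein, was 725.2, 457.1 and 741.5 against 51.1, 79.1 and 56.7. S100a7a, an S100 protein of stressed epidermis, differed by -3.14.

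The markers higher in inserts 4 to 6 were the chemokines Cxcl1 and Ccl20. Cxcl1 (chr5:90891244-90893115) was 387.8, 587.9 and 2143 in smoke inserts 1 to 3 and 3480, 10160 and 9036 in inserts 4 to 6, against 1277 to 2540 in air. Inserts 1 and 2 were below every air insert, insert 3 was inside the air range, and inserts 4 to 6 were above it. The set means were 1040 ± 961 and 7559 ± 3580 (SD, n = 3 each), a difference of 3.12. With inserts 1 and 2 below air and inserts 4 to 6 above it, the mean over all smoke inserts against air was 0.33 ± 0.71 (limma, adjusted p = 0.719). This mean turned to -0.10 without smoke insert 5 and to -0.06 without smoke insert 6. The air sets differed by 0.44 ± 0.11 (limma, adjusted p = 0.0126), which did not hold without air insert 1, 2 or 4 or in DESeq2 (adjusted p = 0.174).

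Ccl20 had the largest difference between the smoke sets among the 6 markers and lies at chr1:83116765-83119167. It was 193.5, 275.7 and 799.6 in smoke inserts 1 to 3, all below the air range of 1558 to 2675, and 1902, 10810 and 5564 in inserts 4 to 6. Insert 4 stayed inside the air range and inserts 5 and 6 were above it. The difference between smoke sets was 3.79. Under air the sets were ordered the other way, by -0.37 ± 0.10 (limma, adjusted p = 0.0222; DESeq2, adjusted p = 0.164), and the air call was also lost without air insert 1, 3, 5 or 6. Smoke against air was -0.64 ± 0.84 (limma, adjusted p = 0.549).

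RefSeq promoters of GRCm38.p6, the build the files use, are shown for Cyp1a1, Cxcl1 and Ccl20, because these genes mark the ends of the division and their windows hold a motif of the receptor or factor named above. Each runs from 250 bases before to 50 bases after the annotated start, 5′ to 3′ on the plus strand, and capitals mark the motif. Cyp1a1 spans chr9:57697363-57697662 and its capitals mark GCGTG, the core of the dioxin response element, at 54 bases before the start. Cxcl1 spans chr5:90890995-90891294 and Ccl20 chr1:83116516-83116815, and their capitals mark matches to the NF-kB consensus, 2 that overlap in Cxcl1 and 1 in Ccl20. The Ccl20 window also holds 1 GCGTG match, read on either strand and left in lower case, and the Cxcl1 window holds 0.
Cyp1a1: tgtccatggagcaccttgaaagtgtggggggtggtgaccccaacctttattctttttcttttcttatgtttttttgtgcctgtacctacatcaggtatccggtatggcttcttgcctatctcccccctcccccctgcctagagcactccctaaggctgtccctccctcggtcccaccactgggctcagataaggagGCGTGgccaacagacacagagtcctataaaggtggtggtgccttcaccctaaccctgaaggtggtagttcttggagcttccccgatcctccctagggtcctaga
Cxcl1: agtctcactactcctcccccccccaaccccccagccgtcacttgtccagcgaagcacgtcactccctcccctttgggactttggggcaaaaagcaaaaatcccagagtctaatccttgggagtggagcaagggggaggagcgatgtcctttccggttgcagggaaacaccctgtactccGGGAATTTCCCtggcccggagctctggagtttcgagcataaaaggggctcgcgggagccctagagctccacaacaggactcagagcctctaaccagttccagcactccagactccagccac
Ccl20: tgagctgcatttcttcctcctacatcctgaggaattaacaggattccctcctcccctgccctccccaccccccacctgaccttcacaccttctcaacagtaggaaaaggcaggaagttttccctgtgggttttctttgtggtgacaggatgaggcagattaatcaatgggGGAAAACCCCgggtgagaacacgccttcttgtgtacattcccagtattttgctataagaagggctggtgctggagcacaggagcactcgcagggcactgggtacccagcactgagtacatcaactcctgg
Cxcl1 thus holds its matches 71 and 70 bases before the start, and Ccl20 holds its match 80 bases before.

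Both strands were searched in all 32851 RefSeq windows of this length, of which 32.4% held GCGTG, 12.4% held TGACNNNGC, the core of the antioxidant response element, and 4.5% held the NF-kB consensus. Among genes kept and matched, an NF-kB match was found for 46 of the 368 higher in inserts 4 to 6 (12.5%), 7 of the 124 higher in inserts 1 to 3 (5.6%) and 657 of all 10461 (6.3%). GCGTG was found for 47.6% of those higher in inserts 1 to 3 and 55.6% of all, and TGACNNNGC for 15.3% and 16.9%. Among genes higher in inserts 4 to 6 the shares were 41.3% for GCGTG and 14.4% for TGACNNNGC. A match is a string of letters in a window and not a bound site. Of the named genes, 66 of 90 had a promoter in the table.

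Of 37 listed chemokines and inflammatory mediators, 30 were kept and 14 differed by 2-fold without overlap, all 14 higher in inserts 4 to 6 (3.73% of all genes). The list's median difference was 1.34, and its mean log2 level was 7.99, 7.58 and 8.63 in inserts 1 to 3 and 8.99, 9.65 and 9.38 in inserts 4 to 6, beside 7.22 to 7.45 in air. Without insert 2, 4 members were higher in inserts 1 to 3 as well. Cxcl5, another neutrophil chemokine, was 4307, 6775 and 14750 against 28280, 35400 and 26960. Tnf, the cytokine upstream of NF-kB, was 195.2, 202.8 and 464.5 against 894.4, 1250 and 2383, and Nfkbia, the inhibitor that NF-kB induces, was 1611, 1975 and 2765 against 4464, 5630 and 7542. Insert 3 was the highest of its set for Cxcl5, Tnf and Nfkbia, as it was for Cxcl1 and Ccl20. Cxcl2 differed by 3.84 yet was not counted, because insert 3 at 225.3 was above insert 4 at 157.6. Csf3, a granulocyte growth factor, rose with smoke by 2.61 (limma, adjusted p = 0.000963) and was above air in both sets, at 655.2 to 1549 and 2373 to 4088.

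A few mediators ran against the rest. Ppbp, a platelet-type CXC chemokine, was 15970, 3128 and 6668 in smoke inserts 1 to 3 and 3759, 2550 and 3067 in inserts 4 to 6, with 18.7 to 54.1 in air. Its rise with smoke, 7.27 ± 0.43 (limma, adjusted p = 1.10e-06), was the largest among named genes with both sets beyond air, and the smoke sets overlapped. Il24 was 212.9 in insert 1 and 16.2 to 35.1 in the other 5. So chemokines did not move as a block, since Ppbp was highest in insert 1, where Cxcl1 and Ccl20 were lowest.

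Il17c, an epithelial cytokine, had the largest difference in favour of inserts 4 to 6 among the 13172 genes kept, at 4.48. It was 1.77, 0.792 and 7.39 in inserts 1 to 3 and 22.2, 116.7 and 169.2 in inserts 4 to 6. Saa3, an acute-phase protein, was 7.07, 7.13 and 15.7 against 42.2, 533.9 and 200.8, a difference of 4.02. In air the sets of Saa3 were ordered the other way, 62.2 to 138.1 in inserts 1 to 3 and 7.87 to 44.1 in inserts 4 to 6 (-2.41 ± 0.43; limma, adjusted p = 0.00113). Cfb, complement factor B, was 876.3, 1682 and 3130 against 6972, 16090 and 11090, and Duoxa2, the maturation factor of a hydrogen peroxide producing oxidase, was 11.5, 3.17 and 29.6 against 76.6, 59.3 and 91.5. Slc26a4, the anion exchanger pendrin, was 0.883, 4.75 and 22.2 against 88.8, 91.95 and 57.5. Inserts 4 to 6 were above the air range for Il17c, Cfb, Duoxa2 and Slc26a4, and for each of these genes inserts 1 and 2 were the lowest of the smoke inserts. Itln1 (intelectin), Chil1 (a chitinase-like protein), Gbp5 (a guanylate-binding protein) and Abcc8 (a potassium channel subunit) differed by 3.13, 2.72, 2.72 and 2.85.

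Cell cycle genes formed the other large group higher in inserts 4 to 6, and insert 1 did not divide from them by much. All 38 listed genes were kept and 19 differed by 2-fold without overlap, all higher in inserts 4 to 6, against 3.73% of all genes. The list's median was 1.22. Ccnb1, the mitotic cyclin B1, was 401.9, 97.5 and 72.0 in inserts 1, 2 and 3 and 622.5, 604.1 and 757.8 in inserts 4 to 6, with 262.9 to 427.4 in air. Insert 1 was thus inside the air range while inserts 2 and 3 were below it. The list's mean log2 level was 8.65 in insert 1, 7.49 and 7.27 in inserts 2 and 3 and 8.81, 8.81 and 9.02 in inserts 4 to 6, beside 7.80 to 8.38 in air. Plk1, a mitotic kinase, and Cdc20, an activator of the anaphase-promoting complex, differed by 1.97 and 1.88. Mcm2, of the replicative helicase, and Pcna, the polymerase clamp, differed by 0.14 and -0.24. Pcna and Mcm2 rose with smoke by 0.57 and 0.61 (limma, adjusted p = 0.00104 and 0.000583). Over the list 16 of 38 rose with smoke and none fell in that test, against 22.1% and 23.5% of all genes.

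**Figure D4:**
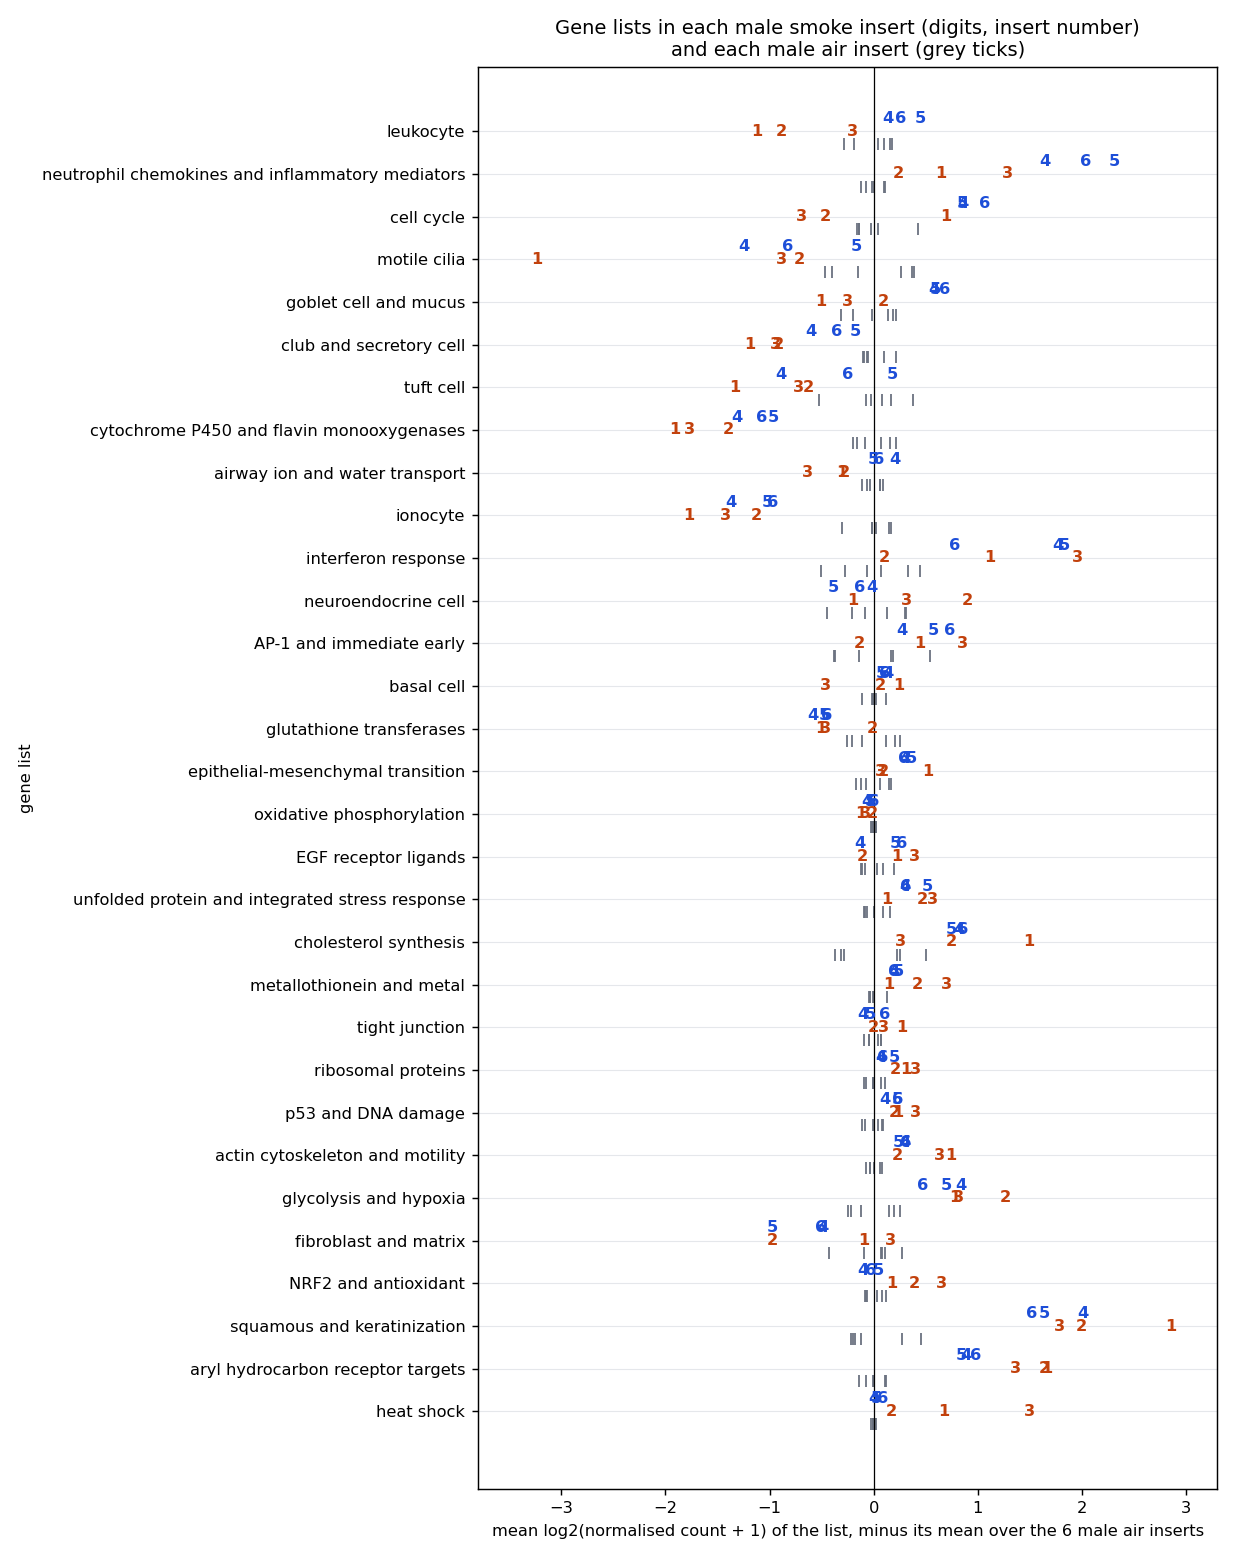
Mean log2(normalised count + 1) of each gene list in each male smoke insert, minus the list's mean over the 6 male air inserts, with digits for the insert number, orange for 1 to 3, blue for 4 to 6 and grey ticks for the air inserts. Chemokines and club cell genes place 1 to 3 left of 4 to 6, cell cycle genes place insert 1 next to inserts 4 to 6, and motile cilia place insert 1 far to the left of the rest.

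Secretory genes were also higher in inserts 4 to 6. Of 21 kept club and secretory genes 8 differed by 2-fold without overlap, all higher in inserts 4 to 6, against 3.73% of all genes. The list's median was 0.76. Pigr, which carries immunoglobulin A across the epithelium, was 2500, 7027 and 6750 against 17120, 16060 and 16670, with 10280 to 14470 in air. Inserts 1 to 3 were below the air range and inserts 4 to 6 above it. Reg3g, an antimicrobial lectin, was 48.6, 80.8 and 134.8 against 352.9, 478.5 and 313.3, and over both sets it fell by 2.66 on the log2 scale (limma, adjusted p = 0.000963). Scgb1a1, the club cell secretoglobin, overlapped at 2695 to 6037 and 1539 to 6742. Muc4, a membrane mucin, and Hp, haptoglobin, differed by 1.67 and 1.90. Of 9 kept goblet genes, 3 were higher in inserts 4 to 6 (Fcgbp, Creb3l1 and Muc5b), against 3.73% of all genes. Without insert 1 the goblet count was 1 and without insert 2 it was 5.

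Most kept genes of the P450 and flavin monooxygenase list fell with smoke, and 5 genes of the list stood higher in inserts 4 to 6 than in inserts 1 to 3. Cyp2f2, the club cell P450 that activates naphthalene, was 52100, 58660 and 37180 against 108900, 101200 and 115800, below the air values of 177300 to 248700 in every smoke insert. Cyp4a12b, a fatty acid hydroxylase, was 293.3, 423.1 and 282.6 against 1282, 1678 and 1649. Of 19 kept P450 and flavin monooxygenase genes, 16 fell with smoke and none rose in limma, against 23.5% and 22.1% of all genes. Between the smoke sets 5 were higher in inserts 4 to 6, against 3.73% of all genes. Cyp2d22 was the 1 gene higher in inserts 1 to 3, against 1.33%. Outside the list Sftpa1, a surfactant collectin, was 205.8, 98.2 and 289.0 against 710.2, 2458 and 1567, and over both sets it fell by 3.08 (limma, adjusted p = 0.00401).

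Of 19 kept genes of ion and water transport, 1 was higher in inserts 1 to 3 and 2 in inserts 4 to 6 by 2-fold without overlap. Of 24 tight junction genes 1 was higher in inserts 4 to 6. The shares over all genes were 1.33% and 3.73%, and nothing is read from counts of 1 or 2 genes. Aqp3, a water and glycerol channel, was 8599, 11660 and 5077 in smoke inserts 1 to 3, all below the air range of 14270 to 17050, and 17740, 18240 and 19670 in inserts 4 to 6, all above it. Tjp3, a tight junction scaffold, was 2600, 3629 and 2222 against 6436, 5816 and 6634, with air at 4076 to 4551. Their mean over both sets did not differ from air by the test, at -0.34 and -0.03 (limma, adjusted p = 0.335 and 0.931). Lcn2, the siderophore-binding lipocalin, had the same pattern at 14580, 28010 and 41370 against 77790, 66690 and 74750, with air at 45310 to 59620. Ngfr, a receptor of basal cells, was 402.8, 530.8 and 241.9 against 1206, 1389 and 1477. The basal list did not follow it, with a median difference of 0.11 over 23 genes. Without overlap, 4 of the 23 were higher in inserts 1 to 3 and 5 in inserts 4 to 6, against 17.7% and 16.0% of all genes.

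Squamous genes mark flattening, keratin-rich epithelium, and 22 of 29 kept genes rose with smoke in limma while 1 fell (Spink5, a protease inhibitor), against 22.1% and 23.5% of all genes. Between the smoke sets 6 were higher in inserts 1 to 3 and 3 in inserts 4 to 6, against 1.33% and 3.73% of all genes. Krt6a, a keratin of stressed epithelium, was 33790, 21400 and 32540 against 13380, 9552 and 9443, with 1162 to 2721 in air. Cnfn, a cornified envelope protein, was 277.4, 96.7 and 76.6 against 35.5, 26.7 and 23.5. The list leaned on insert 1, with a mean log2 level of 9.26 there and 7.93 to 8.42 in the other 5 smoke inserts. Its median of -0.54 became 0.11 without insert 1. Klk10, a secreted protease, was the other way at 2966, 3509 and 5495 against 8075, 14380 and 9522. The list's count in favour of inserts 1 to 3 was 10 without insert 3 or without insert 4.

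Cilia genes followed insert 1 and not the sets. Of 60 kept genes 3 differed by 2-fold without overlap (Hydin, Myb and Gmnc), all higher in inserts 4 to 6. That is near the 3.73% of all genes. The count was 1 without insert 1, 12 without insert 2 and 10 without insert 4. Foxj1, the master regulator of motile cilia, was 103.4 in insert 1, 823.2 and 873.5 in inserts 2 and 3 and 529.3, 1166 and 868.8 in inserts 4 to 6. Hydin, a protein of the central pair of the axoneme, was 17.7 in insert 1 and 116.3 to 289.7 in the other 5. The list's mean log2 level was 4.68 in insert 1 and 6.67 to 7.75 in the other smoke inserts, beside 7.45 to 8.30 in air. Its median difference of 0.94 became 0.02 without insert 1. In limma 27 of the 60 fell with smoke and 1 rose, against 23.5% and 22.1% of all genes.

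Interferon genes divided the inserts along another line. The mean log2 level of 34 kept genes was 8.73, 7.72 and 9.57 in inserts 1 to 3 and 9.38, 9.45 and 8.39 in inserts 4 to 6, so inserts 2 and 6 were the lowest. Isg15, a ubiquitin-like modifier, was 844.5, 225.8 and 1545 against 752.4, 816.7 and 274.5. Mx1 was the 1 listed gene that differed between the sets, near the 3.73% of all genes higher in inserts 4 to 6. Without insert 3 or without insert 6 the count in favour of inserts 4 to 6 was 8 or 6. With smoke 26 of the 34 rose and none fell in limma, against 22.1% and 23.5% of all genes. Of 27 glycolysis genes 9 had no overlap between the smoke sets, a share close to the 33.8% of all genes, 7 of them higher in inserts 1 to 3. By the 2-fold rule 1 differed, beside 1.33% of all genes higher in inserts 1 to 3. This was the lactate exporter Slc16a3, at 281.8, 409.6 and 322.3 against 104.3, 160.2 and 110.1.

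Of 17 leukocyte genes 8 were kept, and Lyz2, H2-Ab1 and Itgam were higher in inserts 4 to 6, against 3.73% of all genes. The summed level of the list was 5911 to 24920 in inserts 1 to 3, 32590 to 46030 in inserts 4 to 6 and 31270 to 41900 in air, and Lyz2 made up most of it. Itgam, an integrin of myeloid cells, was 146.6, 85.6 and 113.6 against 436.1, 152.3 and 281.0, with 12.9 to 60.7 in air, and rose with smoke by 2.61 (limma, adjusted p = 0.000752). Ptprc, the pan-leukocyte antigen, was at most 8.29 in air and 8.31 in smoke, Adgre1 was at most 0.923, and Tyrobp and Ms4a1 were at 0 in all 12 male libraries. Of 8 endothelial genes none was kept, with Pecam1 at most 30.5 and Cdh5 at most 0.923. Of 17 fibroblast genes 6 were kept and Col1a1 was at most 5.54, while Dcn was 57.7 to 313.7 in air and 0 to 12.1 in smoke. Basal (Krt5, Trp63), club (Scgb1a1) and ciliated (Foxj1) markers were present in every male insert. Leukocyte genes counted as higher in inserts 4 to 6 were 2 without insert 1 and 5 without insert 3. The part of these cells in the chemokine or secretory differences was not tested.

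Some of the largest responses to smoke placed both smoke sets beyond all 6 air inserts. Whether their size depended on the set was not tested. Krt6b and Pglyrp4, a keratin and a peptidoglycan recognition protein, rose by 5.32 and 5.31 with smoke (limma, adjusted p = 1.65e-05 and 1.70e-05), and the smoke sets overlapped for both. Pglyrp4 was 138.7, 39.6 and 86.8 against 96.5, 52.4 and 77.7, with 0 to 5.62 in air. Akr1c14, a steroid dehydrogenase, fell by 4.32 on the log2 scale (limma, adjusted p = 6.33e-06), at 174.0, 203.6 and 119.1 against 68.8, 362.9 and 190.3, with 2055 to 4816 in air. Slc6a15, an amino acid transporter, fell by 3.88 and Cyp2a5, a nicotine-oxidising P450, fell by 3.49 (limma, adjusted p = 3.94e-06 and 1.37e-05). In this comparison 2910 genes (22.1%) rose and 3093 (23.5%) fell, 6003 in all or 45.6%. With the female libraries in the same fit 2886 passed.

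The air inserts gave a test of the numbered sets that the choice did not use. Between air inserts 1 to 3 and 4 to 6, 2219 genes passed limma, 16.9% of 13169, with 986 (7.49%) higher in inserts 1 to 3 and 1233 (9.36%) in inserts 4 to 6. Few of these differences were large, since 173 of the 2219 (1.31% of all genes) reached 2-fold. The count was 1229 without air insert 1 and 1204 without air insert 6. When the 6 smoke inserts shared the estimate of spread, 18 genes passed, and of the markers Nqo1 remained (limma, adjusted p = 0.00546) while Hmox1, Gsta1, Cxcl1 and Ccl20 did not.

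Of the 60 cilia genes, 54 were in limma higher in air inserts 1 to 3 and none in inserts 4 to 6, against 7.49% and 9.36% of all genes, with a median of -0.69. Deup1, which builds the many centrioles of ciliated cells, was 192.7, 170.6 and 199.9 in air inserts 1 to 3 and 40.5, 48.1 and 45.3 in inserts 4 to 6 (-2.05 ± 0.15; limma, adjusted p = 5.85e-07). Under smoke Deup1 overlapped between the sets, at 2.65, 29.3 and 24.9 against 3.33, 18.8 and 11.3. Upk3a and Rbp4, a uroplakin and the retinol carrier, were also higher in air inserts 1 to 3, by -1.79 and -1.68 (limma, adjusted p = 1.46e-05 and 1.09e-05).

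Of 29 squamous genes 11 were called in favour of air inserts 4 to 6, against 9.36% of all genes, with a list median of 0.24. Nlrp10, an inflammasome-related protein, and the cornified envelope genes Sprr2a3 and Ivl differed by 2.16, 1.92 and 1.74 (limma, adjusted p = 2.18e-05, 8.13e-07 and 0.000998). Nlrp10 and Ivl overlapped between the smoke sets, at -0.32 and -0.68. Of 24 sterol synthesis genes 21 were called in favour of air inserts 4 to 6, of 27 glycolysis genes 19, of 34 interferon genes 19 and of 21 AP-1 genes 16, with none of these in favour of inserts 1 to 3, against 9.36% and 7.49% of all genes. No sterol synthesis gene differed between the smoke sets by 2-fold without overlap, beside 5.06% of all genes.

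Genes that differed between the smoke sets were called in air in both directions. Of the 666 genes that differed between the smoke sets, 193 were called in air (29.0% of the 666 and 8.70% of the 2219), beside 16.9% of all genes. Of these 193, 87 were called in the same direction and 106 in the opposite one. By the rule of no overlap and 2-fold in both, 39 were shared (5.86% of 666 and 19.3% of 202), 21 in the same direction. Over all genes that rule gave 1.53% in air and 5.06% under smoke. Across 13169 genes, which are not independent replicates, the differences of the sets had a Pearson correlation of -0.137 between smoke and air. On the NRF2 list 13 of 32 genes were called higher in air inserts 1 to 3 and 3 in inserts 4 to 6. Among transferases 11 of 22 were called higher in air inserts 1 to 3 and none in inserts 4 to 6. Of the 30 chemokine and mediator genes, 10 were called in air in favour of inserts 4 to 6 and 3 in favour of inserts 1 to 3. Of the 38 cell cycle genes 10 were called, each in favour of air inserts 4 to 6. Over all genes the shares called in air were 7.49% higher in inserts 1 to 3 and 9.36% higher in inserts 4 to 6.

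**Figure D5:**
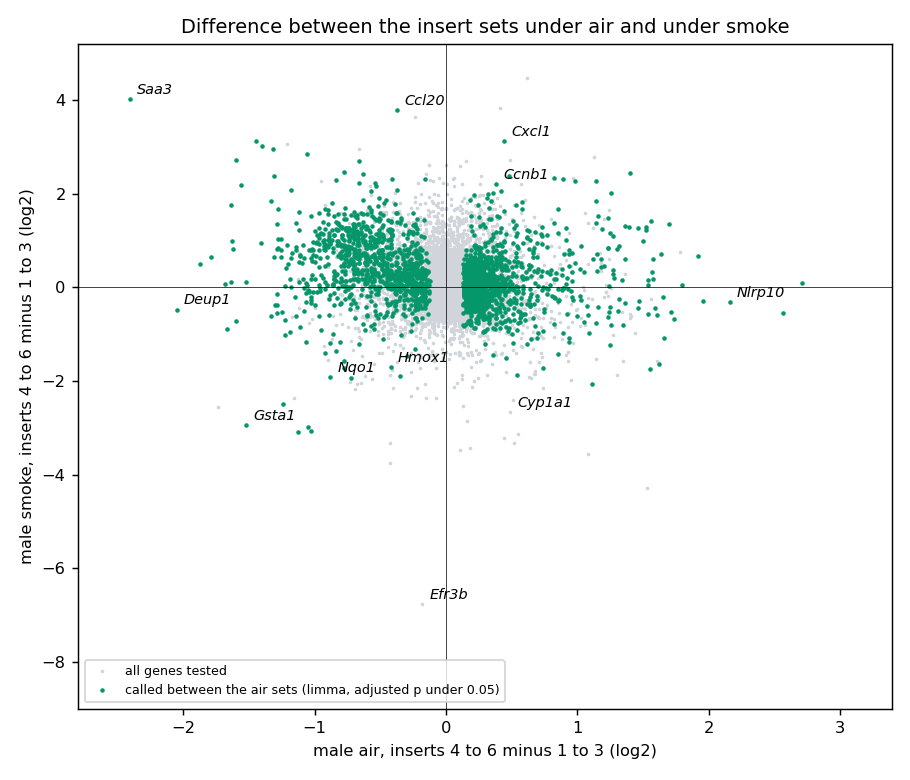
Difference between inserts 4 to 6 and 1 to 3 under smoke (y axis, log2) against the same difference under air (x axis, log2), 1 point per gene, with green for genes that passed limma between the air sets. Nqo1, Hmox1 and Gsta1 are below 0 on both axes, Saa3 and Ccl20 are below 0 on the x axis and above 0 on the y axis, and Nlrp10 differs in air at 2.16 and lies at -0.32 under smoke.

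The markers did not divide the female smoke inserts by these numbers. Between female smoke inserts 1 to 3 and 4 to 6, 0 of 13168 genes passed limma, 936 (7.11%) had an unadjusted p under 0.05, and no other tool was run. Of the 6 markers 0 were free of overlap between the female smoke sets. Cyp1a1 was 28.2, 143.9 and 60.7 in female smoke inserts 1 to 3 and 38.4, 284.1 and 267.2 in inserts 4 to 6, and Nqo1 was 4252, 4903 and 4564 against 3745, 4587 and 4910. Male smoke inserts 4 to 6, at 908.8 to 1099, were thus below every female smoke insert for Nqo1, and male smoke inserts 1 to 3 were close to them. Ccl20 was 345.7 to 754.7 and 310.3 to 1091, all of it below male smoke inserts 4 to 6. By the rule of no overlap and 2-fold 392 genes (2.98%) differed between the female smoke sets, and 65 of them were among the 666 (9.76% of the 666 and 16.6% of the 392), 34 in the same direction.

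Some other genes had no overlap between the numbered sets of female smoke inserts, though none passed limma. Cell cycle genes had no overlap between the female smoke sets for 19 of 38 and a median of 1.06, and glycolysis genes for 13 of 27 with a median of -0.47, beside 16.0% of all genes (2113 of 13168). The mean log2 level of the cell cycle list was highest, at 10.61, in female smoke insert 4, the library with a length trend of -0.449. Insert 6 at 9.57 was close to insert 1 at 9.51. Ccnb1 was 1191, 788.1 and 607.0 in female smoke inserts 1 to 3 and 2751, 1638 and 1275 in inserts 4 to 6, a difference of 1.11 (limma, adjusted p = 0.582), in the direction seen in male smoke. Ndufa4l2 was 1521, 124.1 and 411.3 in female smoke inserts 1 to 3 and 3.60, 7.99 and 1.04 in inserts 4 to 6, a difference of -6.61 (limma, adjusted p = 0.582), beside -3.33 in male smoke. Slc16a3 was 1151, 363.8 and 486.4 against 39.6, 76.5 and 111.8 in female smoke, again without overlap and with the first set higher. Ndufa4l2 in female air was 1060, 172.5 and 136.4 against 7.63, 16.7 and 9.17, so the order was there without smoke, while in male air its sets overlapped at 31.1 to 100.5 and 40.2 to 178.1. Between the female air sets 81 genes passed limma (0.615%), a count that ran from 0 without insert 4, 5 or 6 through 5 without insert 2 or 3 to 1647 without female air insert 1, the library with the steepest trend with transcript length.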

How the data were processed

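RNA from 24 inserts of mouse tracheal epithelium was sequenced, per the labels, from NEBNext Ultra II libraries. FastQC 0.11.9, Trimmomatic 0.38.0, HTSeq, DESeq2 and the builds GRCm38 and mm10 stand in the submitters' processing notes; the sources used here name no aligner or strand setting. The deposited values are a signal per gene: reads over a library's size factor, unscaled for length. The authors' deposited table of male air against smoke gives log2 fold changes, p-values and other columns with gene positions; only positions were used. Whole reads were recovered within 0.001 in 23 libraries; male smoke insert 5, without them, was left out of edgeR and DESeq2. Genes averaging 10 or more over the 6 male smoke inserts were kept. Values were analysed as log2(value + 1), so fold changes of low genes are understated. Smoke sets were described, a difference meaning no overlap and at least 2-fold. Limma 3.58.1 (R 4.3.3; eBayes with trend, two-sided, Benjamini-Hochberg adjusted p under 0.05 over all genes kept that vary) tested the sets of each other group alone, and male smoke against air over 12 libraries. edgeR 4.0.16, DESeq2 1.42.0, other pseudocounts, filters, scalings, terms and leaving out each insert were alternatives, with Python 3.11.15 for the rest. The limma step was tested on simulated data. Named genes are the markers, the 12 highest and 12 lowest smoke-set differences with no overlap and a mean of at least 50, the 2 largest of each of 33 gene lists under the same conditions, the 5 highest and 5 lowest air calls, and the 6 highest and 6 lowest smoke responses with both sets beyond air; other list members are examples, and a few genes under this rule are not reported here. Members and lists were chosen with earlier results of these data known.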

Additional observations from a re-analysis of the deposited data

Results flagged for a closer look

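Of 244 groups of 6 values screened, 9 had an end value set apart from the rest, where chance flags about 1 in 20 groups, or 12.2. Male smoke insert 1 was the value apart for Hydin at 17.7 and Il24 at 212.9, and for the mean log2 level of the squamous list at 9.26 and of motile cilia at 4.68. Male smoke insert 2 stood apart for glutathione transferases at 9.30 and insert 3 for basal cell genes at 11.71. Among air inserts, insert 2 stood apart for Reg3g at 820.9, insert 3 for metallothionein and metal genes at 10.89 and insert 4 for cell cycle genes at 8.38. For Aqp3, Tjp3 and Hspb1 the smoke sets lay on opposite sides of all 6 air inserts, with differences of 1.21, 1.19 and -1.89 on the log2 scale; these differences were not tested.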

How the results depend on the processing

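The count of 666 genes between male smoke sets became 1111 with no filter, 4446 with no overlap at any size of difference, and 695 to 1015 when each insert was left out. Between male air sets 2219 became 18 with all 12 male libraries in the fit and 1204 to 2124 when each insert was left out, while edgeR on whole reads gave 2163 and DESeq2 1831. Between female air sets 81 became 49 with scaling by the library total and 0 to 1647 when each insert was left out. Between female smoke sets the count was 0 in limma under every alternative run, with 936 at an unadjusted p under 0.05. Male smoke against air gave 2886 with all 24 libraries and 4931 to 6086 when each insert was left out. With the insert number as a replicate block it gave 5082; same-numbered smoke and air inserts had correlations of deviations from the group mean of -0.258 to 0.13, with insert 2 best matched to its own number, and of deviations from the insert set mean of -0.086 to 0.151, with inserts 4 and 5 so matched. Not every pair was over 0.1, so the numbers were not taken as pairs. Cxcl1 against air turned from 0.33 to -0.10 without male smoke insert 5 and to -0.06 without insert 6, in a range of -0.10 to 0.85 over the inserts left out. The causes were not tested, apart from fewer samples where inserts were left out.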
